A study of Mus musculus with 30 samples.

Results

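The genes described here are 5 genes of the osteocyte, Dmp1, Phex, Mepe, Sost and Pdpn, in RNA from mouse fracture callus. They were chosen by name as a list of osteocyte genes and matched by symbol to the gene IDs of the count table, where they are 5 of 55416. Read counts per gene were measured in 30 libraries of fracture callus, collected 3, 6, 10 and 14 days after a closed tibial fracture without fixation (3-, 6-, 10- and 14-dpf) in adult P-Apex1KO mice and WT littermates. The paper describes the 3-dpf tissue as tibia cut out around the fracture, and the 6-dpf tissue as whole callus. P-Apex1KO mice were Prrx1-Cre+/-;Apex1 C/C, that is, both alleles of Apex1, which encodes a DNA repair and redox protein, could be cut by Cre. As the paper defines it, the WT group pooled Apex1 C/+ littermates with or without Prrx1-Cre+/- and Apex1 C/C littermates for which no Cre is listed. By that definition every control also carried a floxed allele and some could carry Cre. Which of these genotypes each WT library had is not given. Prrx1-Cre acts in limb bud mesenchyme and its descendants, so blood, vessel, muscle and osteoclast lineage cells of the callus keep the gene. There were 4 WT and 4 P-Apex1KO libraries at 3-dpf, 5 and 3 at 6-dpf, 4 and 3 at 10-dpf, and 4 and 3 at 14-dpf, of both sexes, except that all 3 P-Apex1KO libraries at 14-dpf came from females and only 1 of the 4 WT libraries did. All RNA was depleted of ribosomal and beta globin transcripts.

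Osteocytes are osteoblasts that have become buried in the bone matrix they made. They stay joined to each other and to the bone surface by long processes, and they control mineral formation, phosphate balance and the activity of the osteoblasts and osteoclasts around them. In fracture healing, cartilage callus is replaced by woven bone, and osteocytes appear as that bone is laid down. The 5 genes cover successive steps of this life history. Pdpn encodes podoplanin, a membrane glycoprotein of the forming cell processes, which is also made by fibroblasts, macrophages and lymphatic endothelium. Phex and Dmp1 encode an endopeptidase of the cell surface and an acidic matrix protein, both needed for normal mineral formation and for restraint of the phosphate hormone FGF23. Mepe encodes another matrix phosphoprotein, whose cleaved acidic peptide inhibits mineral formation and is bound by PHEX. Sost encodes sclerostin, a secreted inhibitor of WNT signalling that marks mature osteocytes.

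In GRCm39, Dmp1 (ENSMUSG00000029307) lies on chr5:104345340-104361974 on the forward strand and Mepe (ENSMUSG00000053863) on chr5:104473195-104486477, also forward. Both belong to the SIBLING genes, a cluster of acidic matrix proteins in the order Dspp, Dmp1, Ibsp, Mepe and Spp1, and 111.2 kb separate the end of Dmp1 from the start of Mepe. Sost (ENSMUSG00000001494) lies on chr11:101853284-101857847, Phex (ENSMUSG00000057457) on chrX:155945071-156198308 and Pdpn (ENSMUSG00000028583) on chr4:142990871-143026143, each on the reverse strand. No annotated gene shares exon bases with any of the 5. The 250 bases upstream of the canonical transcript start are shown for the 4 genes with the largest genotype differences at 6-dpf, because Dmp1 and Phex moved one way and Mepe and Sost the other at 6-dpf. They were read from GRCm39, each 5' to 3' on the strand of its gene. The windows were chr5:104350226-104350475 for Dmp1, chr5:104472945-104473194 for Mepe, chr11:101857848-101858097 for Sost and chrX:156198283-156198532 for Phex. For Dmp1 and Phex the canonical start lies inside the annotated gene, so part of the window does too. Capitals mark matches, on either strand, to TGTGGT, the core letters bound by RUNX factors, among them the osteoblast factor RUNX2.
Dmp1: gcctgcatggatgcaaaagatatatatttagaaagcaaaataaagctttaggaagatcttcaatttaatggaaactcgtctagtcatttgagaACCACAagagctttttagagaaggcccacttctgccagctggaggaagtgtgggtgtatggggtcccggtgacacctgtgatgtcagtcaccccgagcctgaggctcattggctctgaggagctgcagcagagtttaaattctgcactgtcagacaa
Mepe: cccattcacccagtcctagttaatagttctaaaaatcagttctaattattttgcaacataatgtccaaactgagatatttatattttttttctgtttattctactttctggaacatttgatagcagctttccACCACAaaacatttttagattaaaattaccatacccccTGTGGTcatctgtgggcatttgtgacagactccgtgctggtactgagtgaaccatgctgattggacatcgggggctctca
Sost: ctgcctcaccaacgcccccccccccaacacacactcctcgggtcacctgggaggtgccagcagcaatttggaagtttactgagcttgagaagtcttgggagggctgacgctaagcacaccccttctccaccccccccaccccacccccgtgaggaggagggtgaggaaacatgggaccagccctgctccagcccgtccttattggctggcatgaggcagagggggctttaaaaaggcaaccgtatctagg
Phex: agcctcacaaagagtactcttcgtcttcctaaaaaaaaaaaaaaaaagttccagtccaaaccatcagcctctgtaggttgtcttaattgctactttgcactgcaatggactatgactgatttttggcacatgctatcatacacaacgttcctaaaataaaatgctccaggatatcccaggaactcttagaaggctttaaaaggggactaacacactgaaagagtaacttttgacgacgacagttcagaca
The Dmp1 window held 1 match, 157 to 152 bases before the start, and the Mepe window held 2, at 118 to 113 and at 80 to 75 bases before the start. The Sost and Phex windows held none. Among the same windows of 21627 protein-coding genes, 13.1% held at least 1 match. None of the 4 windows held the letters TGANTCA (AP-1, in 6.19% of windows), ACGTG (the hypoxia response core, in 17.0%) or TGACGTCA (the cAMP response element, in 1.69%). The Pdpn window, chr4:143026144-143026393, held the hypoxia core letters on both strands of a single palindrome and no other of these motifs.

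Total counts ran from 18334389 to 43111491 per library. All 5 genes passed the filter on low counts at every time point. Their counts ran from 172 to 13416 for Dmp1, 139 to 13579 for Phex, 123 to 1771 for Mepe, 55 to 1561 for Sost and 542 to 7275 for Pdpn. Levels are given as CPM, read counts divided by a library size that was scaled once by TMM over all 30 libraries. Differences are log2 fold changes of P-Apex1KO over WT at 1 time point, with their standard error (SE), from edgeR's quasi-likelihood F test in a model with sex as a covariate, with p-values adjusted by Benjamini-Hochberg across the genes tested. Apex1 itself was lower in P-Apex1KO callus at 6-dpf (log2 fold change -0.67, edgeR adjusted p = 0.0071) and at 10-dpf (-0.65, edgeR adjusted p = 0.0278). It did not pass at 3-dpf (-0.15, edgeR adjusted p = 0.927), where the library labelled P-Apex1KO replicate 4 had 34.6 CPM against at most 33.1 in WT, or at 14-dpf (-0.29, edgeR adjusted p = 0.367). At 14-dpf Apex1 was nonetheless at 14.2 to 18.6 CPM in P-Apex1KO and 19.8 to 27.2 CPM in WT, with no overlap, as for 23.4% of genes in that direction. The lowest of these WT values, 19.8 CPM, was that of the only WT female. Sample names follow another style at 3- and 6-dpf than at 10- and 14-dpf, so a step in level between 6- and 10-dpf cannot be told apart from a difference between these sets of libraries. A change from 3- to 6-dpf within a genotype likewise cannot be told apart from a difference in the tissue taken. In bulk callus, fewer cells of a type and less RNA per cell cannot be told apart. RNA from osteocytes of the original tibia and from those of new callus bone cannot be told apart either.

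In WT callus the genes of mineral formation rose with time. Dmp1 was at 30.9, 25.3, 16.7 and 33.8 CPM at 3-dpf and at 85.6, 71.4, 71.9, 73.1 and 63.5 CPM at 6-dpf. It reached 403, 330, 129 and 303 CPM at 10-dpf and 481, 501, 357 and 587 CPM at 14-dpf. The rise from 3- to 6-dpf was 1.42 on the log2 scale (SE 0.38, edgeR adjusted p = 0.013), against 30.5% of genes called in that comparison in either direction. Phex followed the same course, from 25.9 to 36.6 CPM at 3-dpf to 65.2 to 138 CPM at 6-dpf (1.39, SE 0.41, edgeR adjusted p = 0.0206), then 225 to 509 CPM at 10-dpf and 503 to 661 CPM at 14-dpf. The Phex rise missed the threshold with no filter on low counts (edgeR adjusted p = 0.0602), with the replicate block (0.0699) and without WT replicate 2 (0.0586) or replicate 3 (0.0681) at 3-dpf. For both genes the WT ranges at 3- and 6-dpf did not overlap, nor did those at 6- and 10-dpf, whereas the 10- and 14-dpf ranges did. From 10- to 14-dpf in WT, none of the 5 genes passed (11.1% of genes were called), and the estimates were 0.89 for Dmp1 (edgeR adjusted p = 0.0993), 0.69 for Mepe (0.107) and 0.63 for Phex (0.118). DESeq2 called these 3.

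Mepe and Sost, the genes of later osteocytes, had another course in WT. Mepe was at 15.3, 18.6, 10.99 and 20.95 CPM at 3-dpf and at 13.8, 7.52, 6.41, 11.1 and 12.7 CPM at 6-dpf, a difference that did not pass (-0.74, SE 0.40, edgeR adjusted p = 0.191). It was higher afterwards, at 42.5, 29.2, 23.5 and 63.9 CPM at 10-dpf and 73.8, 61.2, 54.7 and 68.2 CPM at 14-dpf. Sost was at 9.94 to 18.2 CPM at 3-dpf and 11.6 to 28.7 CPM at 6-dpf (0.29, SE 0.43, edgeR adjusted p = 0.662), and at 19.8 to 54.5 CPM at 10-dpf and 27.6 to 60.2 CPM at 14-dpf. Pdpn ran the opposite way. It was highest at 3-dpf, at 166, 105, 107 and 167 CPM, lower at 6-dpf, at 62.0 to 82.1 CPM (-0.88, SE 0.14, edgeR adjusted p = 0.000167), and at 33.1 to 46.5 CPM at 10-dpf and 30.8 to 42.3 CPM at 14-dpf. Per exon length (FPKM), Pdpn led the 5 genes in WT at 3-dpf, at 27.4 ± 7.0 (SD, n = 4), and was last at 14-dpf, at 7.45 ± 1.0 (SD, n = 4). Dmp1 led at 14-dpf, at 150 ± 29.6 FPKM, followed by Phex at 89.3 ± 11.3, Mepe at 38.3 ± 4.93 and Sost at 19.8 ± 6.76.

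**Figure D1:**
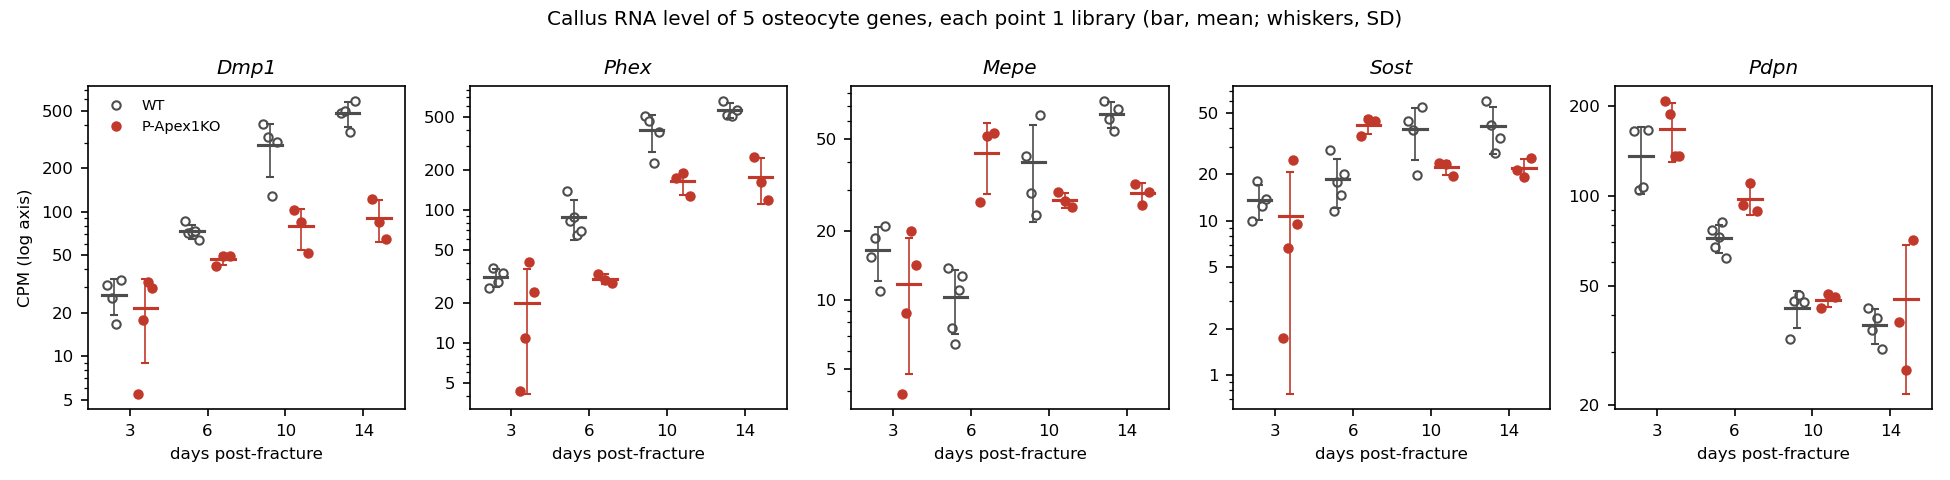
Level of the 5 genes in CPM (log axis, a scale of its own for each gene) against days post-fracture, with 1 point per library, WT open and P-Apex1KO filled, bars at the mean and whiskers of 1 SD. Dmp1 and Phex climb in WT to 481 and 562 CPM on average at 14-dpf and stay at 90.8 and 178 CPM in P-Apex1KO, Mepe and Sost stand above WT in P-Apex1KO at 6-dpf and below at 14-dpf, and Pdpn falls with time in both genotypes.

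At 3-dpf the genotypes overlapped for all 5 genes, as for all but 3.66% of the genes tested. Dmp1 was at 5.43, 17.8, 32.8 and 29.7 CPM in P-Apex1KO, Phex at 4.39, 10.95, 40.3 and 24.3 CPM, Mepe at 3.88, 8.77, 20 and 14.2 CPM, and Sost at 1.74, 6.71, 24.8 and 9.54 CPM. In all 4 genes P-Apex1KO replicate 1 was the lowest library and replicate 3 the highest of its group. Pdpn was at 209, 189, 137 and 136 CPM in P-Apex1KO, with replicate 1 the highest. The log2 fold changes were -0.32 (SE 0.53) for Dmp1, -0.63 (SE 0.53) for Phex, -0.48 (SE 0.45) for Mepe, -0.35 (SE 0.54) for Sost and 0.19 (SE 0.13) for Pdpn, and none passed (lowest edgeR adjusted p = 0.875). No gene of the 19866 tested (0%) was called at 3-dpf, while 1216 had an unadjusted p under 0.05 and DESeq2 called 85. Without P-Apex1KO replicate 1 the estimate for Dmp1 was 0.0004 and without replicate 3 it was -0.87, so single libraries set these estimates. Replicate 1 also had the highest summed level of 8 skeletal muscle markers at 3-dpf, 10300 CPM against 2970 to 4270 CPM in WT, and the lowest summed level of 11 osteoblast markers, 17700 CPM against 25700 to 31600 CPM in WT. The part of tissue composition in the 3-dpf values was not tested.

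At 6-dpf the 5 genes split by direction. Dmp1 and Phex were lower and Mepe, Sost and Pdpn higher in P-Apex1KO callus, and for each of the 5 the genotypes did not overlap. All 5 passed the test, against 10.9% of the 20260 genes tested (5.61% lower and 5.31% higher). No overlap between genotypes was seen for 20.6% of all genes (11.9% lower and 8.71% higher).

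Of the lower pair, Dmp1 was at 42.3, 49.0 and 49.3 CPM in P-Apex1KO against 63.5 to 85.6 CPM in WT, a difference of -0.63 (SE 0.12, edgeR adjusted p = 0.00981). Phex was at 32.98, 29.5 and 28.3 CPM against 138, 82.4, 88.4, 65.2 and 69.7 CPM, a difference of -1.43 (SE 0.22, edgeR adjusted p = 0.00613). Every P-Apex1KO library thus held less of the PHEX and DMP1 transcripts than every WT library, and P-Apex1KO Phex stood within the WT range of 3-dpf. Phex passed in every alternative run, whereas Dmp1 missed the threshold without P-Apex1KO replicate 1 (-0.53, edgeR adjusted p = 0.0818) and in 1 model of all 30 libraries (-0.58, edgeR adjusted p = 0.349). Between 3- and 6-dpf in P-Apex1KO neither gene passed (Dmp1 1.14, edgeR adjusted p = 0.0896, and Phex 0.68, edgeR adjusted p = 0.364). DESeq2 did call that Dmp1 rise (DESeq2 adjusted p = 0.0256). The change of the genotype difference from 3- to 6-dpf did not pass for Dmp1 (-0.28, SE 0.56, edgeR adjusted p = 0.916). Nor did it for Phex (-0.71, SE 0.61, edgeR adjusted p = 0.724), so the rises were not shown to differ between genotypes.

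Of the higher genes, Mepe was at 26.6, 51.6 and 53.2 CPM in P-Apex1KO and no more than 13.8 CPM in WT, a 4.26-fold ratio of mean CPM and a log2 fold change of 2.04 (SE 0.32, edgeR adjusted p = 0.00592). Sost was at 35.5, 45.5 and 44.6 CPM in P-Apex1KO against 28.7, 11.6, 17.8, 14.6 and 20.2 CPM in WT, with a log2 fold change of 1.36 (SE 0.25, edgeR adjusted p = 0.0111). The mean of P-Apex1KO Sost at 6-dpf, 41.9 CPM, was the highest of the 8 groups, with a range that overlapped those of WT at 10- and 14-dpf. Between 3- and 6-dpf in P-Apex1KO, Mepe rose by 1.93 (SE 0.45, edgeR adjusted p = 0.0135) and Sost by 2.18 (SE 0.49, edgeR adjusted p = 0.0114), with 14% of genes called in that comparison. Without P-Apex1KO replicate 2 at 6-dpf these 2 rises were 1.80 and 2.01 (edgeR adjusted p = 0.0641 and 0.0573), and with the replicate block the Sost rise was 2.12 (edgeR adjusted p = 0.0881). The test of whether the genotype difference itself changed from 3- to 6-dpf missed the threshold for Mepe (2.67, SE 0.61, edgeR adjusted p = 0.0542) and for Sost (1.89, SE 0.66, edgeR adjusted p = 0.227), with 1.3% of genes called. DESeq2, plain library-size scaling, the fit with no sex term and 3 of 16 fits without 1 library called Mepe there.

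Pdpn was at 93.4, 110 and 89.0 CPM in P-Apex1KO and 62.0 to 82.1 CPM in WT at 6-dpf (log2 fold change 0.44, SE 0.11, edgeR adjusted p = 0.0388). The groups did not overlap, although the lowest P-Apex1KO library stood only just above the highest WT library. The call was lost in 5 of 8 fits without 1 library (edgeR adjusted p from 0.0282 to 0.161), in the model of all 30 libraries (0.26) and with the replicate block (0.113). Pdpn fell between 3- and 6-dpf in P-Apex1KO too (-0.74, SE 0.16, edgeR adjusted p = 0.00614).

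The calls of Mepe and Sost at 6-dpf, though not their direction, depended on settings. With no filter on low counts their adjusted p was 0.0506 and 0.0548 in edgeR, and with the replicate number as a block in place of sex it was 0.0646 and 0.115, with estimates of at least 2.03 and 1.198 over all alternatives with every library kept. Without WT replicate 4, Sost had an edgeR adjusted p of 0.0571.

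**Figure D2:**
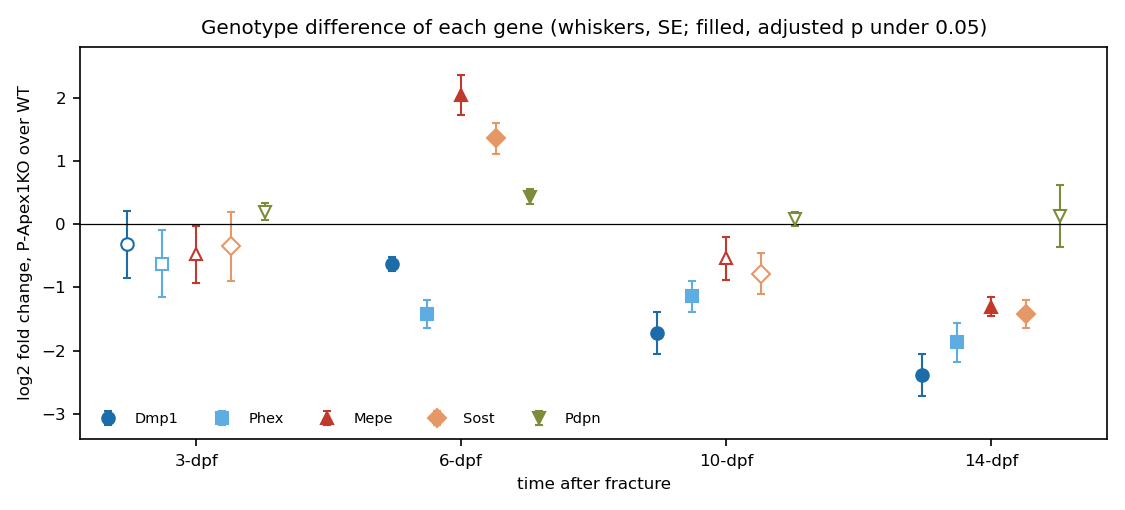
Log2 fold change of P-Apex1KO over WT for each of the 5 genes at each time point, with whiskers of 1 SE and filled symbols where the adjusted p is under 0.05. All 5 symbols are filled at 6-dpf, 2 below and 3 above 0, and 4 are filled below 0 at 14-dpf.

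At 10-dpf the lower pair remained lower and Mepe and Sost no longer stood above WT. Dmp1 was at 103, 84.1 and 52.0 CPM in P-Apex1KO against 129 to 403 CPM in WT (log2 fold change -1.72, SE 0.33, edgeR adjusted p = 0.0364). Phex was at 174, 190 and 126 CPM against 225 to 509 CPM (-1.14, SE 0.24, edgeR adjusted p = 0.04). Neither gene overlapped between genotypes. These 2 of the 5 passed, against 6.46% of the 18910 genes tested (3.44% lower), and 19.3% of genes did not overlap (10.5% lower). Both calls were lost with no filter on low counts (edgeR adjusted p = 0.13 and 0.149) and in 5 of 7 fits without 1 library, over which Dmp1 ran from -1.98 to -1.37 and Phex from -1.37 to -0.95.

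Mepe was at 29.4, 27.0 and 25.4 CPM in P-Apex1KO, inside the WT range of 23.5 to 63.9 CPM (-0.54, SE 0.35, edgeR adjusted p = 0.396). Sost was at 23.9, 23.3 and 19.6 CPM in P-Apex1KO and 44.3, 38.7, 19.8 and 54.5 CPM in WT (-0.78, SE 0.33, edgeR adjusted p = 0.21), and DESeq2 called it lower (-0.79, DESeq2 adjusted p = 0.0338). WT replicate 3 was the lowest WT library for Dmp1, Phex, Mepe and Sost, and without it the Sost difference was -1.06 (edgeR adjusted p = 0.00627) and that of Mepe -0.78 (edgeR adjusted p = 0.133). Pdpn was at 42.1, 46.8 and 45.9 CPM in P-Apex1KO and 33.1 to 46.5 CPM in WT, a difference of 0.08 (SE 0.11, edgeR adjusted p = 0.712).

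At 14-dpf the 4 genes of the matrix-embedded cell were all lower in P-Apex1KO callus and Pdpn was not called. Dmp1 was at 123, 85.2 and 64.6 CPM against 357 to 587 CPM in WT, a 5.3-fold ratio of mean CPM and a log2 fold change of -2.38 (SE 0.33, edgeR adjusted p = 0.00711). Phex was at 251, 163 and 119 CPM against 503 to 661 CPM (-1.87, SE 0.31, edgeR adjusted p = 0.0112). The Phex call was lost without P-Apex1KO replicate 2 (-1.82, edgeR adjusted p = 0.058) and with no filter on low counts (-1.87, edgeR adjusted p = 0.0662). For both genes the highest P-Apex1KO library lay well under the lowest WT library.

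Mepe was at 32.2, 26.0 and 29.6 CPM in P-Apex1KO against 54.7 to 73.8 CPM in WT (-1.31, SE 0.15, edgeR adjusted p = 0.00232). Sost was at 21.3, 19.3 and 25.5 CPM against 60.2, 41.8, 27.6 and 34.5 CPM in WT (-1.42, SE 0.22, edgeR adjusted p = 0.0079), groups that lay next to each other without overlap. These 4 calls stand beside 11.3% of the 20228 genes tested (7.04% lower), while 42% of all genes did not overlap between genotypes at 14-dpf (23.4% lower). Since all P-Apex1KO mice at 14-dpf were females, the fit with sex compares them with the single WT female, replicate 1, which had the highest Sost of its group. With no sex term the Sost difference was -0.86, and without that library, also with no sex term, it was -0.61. In both of these fits all 4 genes were still called lower (Sost edgeR adjusted p = 0.0322 and 0.0301). Pdpn spread over 37.9, 26.1 and 71.4 CPM in P-Apex1KO, a range that contained all 4 WT values, and its difference did not pass (0.12, SE 0.49, edgeR adjusted p = 0.9).

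Between 10- and 14-dpf none of the 5 genes changed by the test in P-Apex1KO (edgeR adjusted p from 0.782 to 0.974), where 0.259% of genes were called, and for none did the genotype difference change (edgeR adjusted p from 0.44 to 0.86, 0.436% of genes called). Between 6- and 14-dpf, a comparison added after the values had been seen, the genotype difference changed by -3.22 (SE 0.45, edgeR adjusted p = 0.000866) for Mepe, by -2.67 (SE 0.39, edgeR adjusted p = 0.000988) for Sost and by -1.76 (SE 0.31, edgeR adjusted p = 0.00357) for Dmp1. Mepe and Sost thereby went from above WT to below it, whereas Dmp1 was below WT at both times and further below at the later one. For Phex (-0.49, SE 0.39, edgeR adjusted p = 0.529) and Pdpn (-0.20, SE 0.40, edgeR adjusted p = 0.844) no change was called, against 7.36% of the 20682 genes tested.

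The order of the groups shows the same division. For Phex, the groups WT at 14- and 10-dpf (562 and 396 CPM on average) came first, with ranges that overlapped each other, then P-Apex1KO at 14- and 10-dpf (178 and 163 CPM), and Dmp1 had the same order of these 4 groups. For Mepe the order was WT at 14-dpf (64.5 CPM), P-Apex1KO at 6-dpf (43.8 CPM) and WT at 10-dpf (39.8 CPM), and last came WT at 6-dpf (10.3 CPM). The first of these did not overlap the next, and the others overlapped their neighbours in the order except P-Apex1KO at 10-dpf (27.2 CPM) against WT at 3-dpf (16.5 CPM). For Sost every group overlapped the next. For Pdpn only P-Apex1KO and WT at 6-dpf were neighbours in the order with no overlap.

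Ratios between members within a library do not depend on library scaling, so Mepe, Sost and Phex were also set against Dmp1 per exon length. This comparison was chosen after the values had been seen and carries no test. At 3-dpf the Mepe to Dmp1 ratio was 0.947 to 1.4 in WT and 0.914 to 1.36 in P-Apex1KO, so the genotypes overlapped. At 6-dpf it was 0.17 to 0.38 in WT and 1.2 to 2.06 in P-Apex1KO, and at 14-dpf 0.222 to 0.293 in WT and 0.499 to 0.876 in P-Apex1KO. The ratio thus dropped below every 3-dpf value in WT from 6-dpf on and stayed above WT in P-Apex1KO from 6- to 14-dpf, including 10-dpf (0.169 to 0.402 against 0.547 to 0.932). Sost to Dmp1 was also higher in P-Apex1KO from 6-dpf on, although its WT ranges at 3-dpf (0.499 to 1.15) and 6-dpf overlapped. It was at 0.252 to 0.518 in WT and 1.3 to 1.44 in P-Apex1KO at 6-dpf, at 0.17 to 0.279 and 0.36 to 0.584 at 10-dpf, and at 0.0909 to 0.194 and 0.269 to 0.612 at 14-dpf. Phex to Dmp1 was lower in P-Apex1KO at 6-dpf (0.293 to 0.398 against 0.454 to 0.824) and higher at 14-dpf (0.942 to 1.04 against 0.492 to 0.72). The genotypes overlapped in this ratio at 3-dpf (0.315 to 0.626 against 0.427 to 0.882) and at 10-dpf (0.864 to 1.24 against 0.644 to 0.891).

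**Figure D3:**
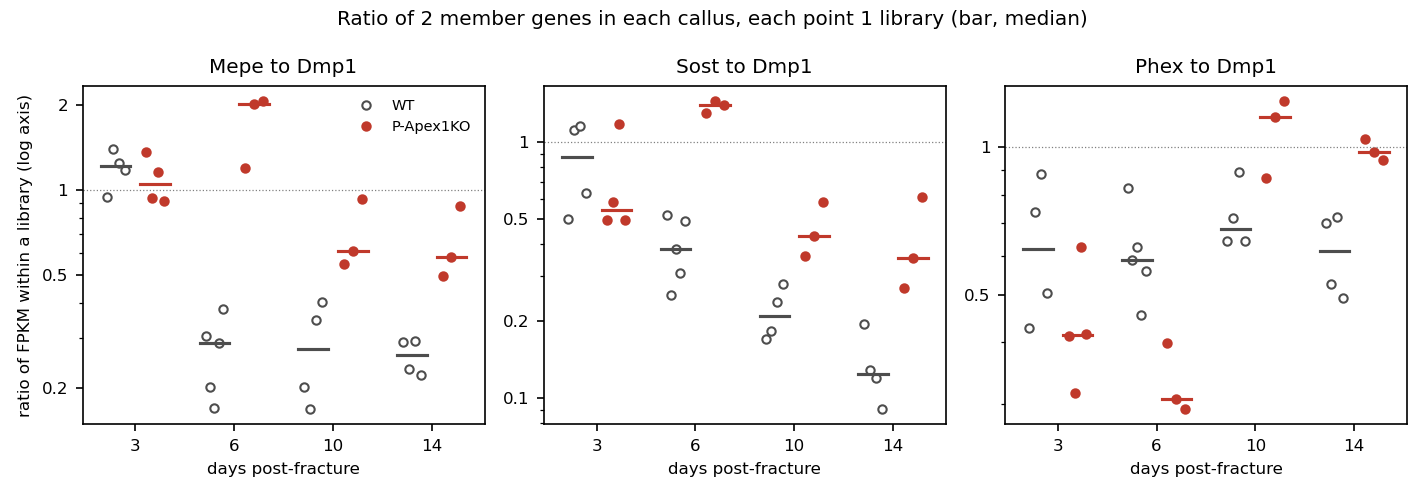
Ratio of FPKM of Mepe, Sost and Phex to that of Dmp1 within each library (log axes) against days post-fracture, WT open and P-Apex1KO filled, bars at the median, dotted line at a ratio of 1. At 6-dpf the Mepe to Dmp1 ratio has a median of 0.288 in WT and 2.01 in P-Apex1KO, and the genotypes stay apart at 10- and 14-dpf.

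The levels of the members moved together to differing degrees over the 30 libraries, which share 8 groups and are therefore not independent points. Pearson's r of log2 CPM was 0.957 for Dmp1 and Phex, 0.844 for Mepe and Sost, 0.739 for Dmp1 and Mepe, and -0.915 for Phex and Pdpn. With the mean of each group subtracted, r was 0.862 for Dmp1 and Phex, 0.839 for Mepe and Sost, 0.753 for Dmp1 and Mepe and -0.447 for Phex and Pdpn. Among 13796 protein-coding genes, those most like Dmp1 were Ccdc194 (r = 0.979), Podnl1 (0.975), Dkk1 (0.974), Tmtc2 (0.972) and Myo1d (0.97). Those most like Phex were Rerg (0.989), Robo2 (0.985), Fat3 (0.984), Lpar3 (0.98) and Ptprz1 (0.979). Mepe had Sost first, then Gabrb2 (0.817), the WNT inhibitor Dkk1 (0.799), the BMP antagonist Grem1 (0.796) and Dgki (0.794), and Sost had Mepe first, then Cnnm2 (0.826), Cplx2 (0.815), Dkk1 (0.815) and Lamc3 (0.798). Pdpn was most like Ctps1 (0.96), the urokinase gene Plau (0.957), Ap2a2 (0.952), the arginase gene Arg1 (0.949) and Rrad (0.944). With group means subtracted, the gene nearest to Dmp1 (0.898) and to Phex (0.952) was Bmp3, a BMP family member of bone. Nearest to Mepe was Sost (0.839), nearest to Sost was Phex (0.855), and nearest to Pdpn was Lhfpl2 (0.834). By ranks (Spearman's rho), Sost was closer to Mepe (0.783) than to Phex (0.607).

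Genes related to the members by family or pathway were counted over lists chosen by known function. The median of all genes tested was 0.01 at 6-dpf and 0.04 at 14-dpf, and the shares of all genes called are those given above for each time point. The other SIBLING genes did not share the rise of Mepe at 6-dpf. Ibsp, the bone sialoprotein gene next to Mepe, was at 883, 764 and 302 CPM in P-Apex1KO and 1400 to 2264 CPM in WT at 6-dpf (-1.48, SE 0.35, edgeR adjusted p = 0.0276), and Spp1, the osteopontin gene, was also lower (-0.64, SE 0.12, edgeR adjusted p = 0.012). Neither was called at 10- or 14-dpf. Still, Ibsp was lower with no overlap at 10-dpf (3055 to 4396 CPM against 4591 to 4799 CPM in WT), as were 10.5% of genes. Spp1 was lower with no overlap at 14-dpf (1261 to 3445 CPM against 4397 to 5859 CPM in WT), as were 23.4% of genes. The genotypes overlapped for Spp1 at 10-dpf and for Ibsp at 14-dpf. Dspp had at most 3 counts in a library and was not tested.

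Among 13 other osteocyte genes, 3 were lower and none higher at 6-dpf (median -0.39), and the 3 were Pth1r, the parathyroid hormone receptor gene (-2.14), Irx5 (-1.72) and Fbln7 (-0.62). At 10-dpf 7 of 12 were lower (median -0.57), and at 14-dpf 6 of 12 were lower (median -0.74), among them Dkk1 (-2.17, SE 0.41, edgeR adjusted p = 0.0186), the connexin gene Gja1 (-1.97, SE 0.13, edgeR adjusted p = 0.000534) and Mmp14 (-1.24, SE 0.28, edgeR adjusted p = 0.0332). Dkk1, which resembles Sost in its function as a secreted WNT inhibitor, was at -0.09 at 6-dpf and was not called. Fgf23, the hormone that PHEX and DMP1 restrain, had 0 to 44 counts per library and was not called at 6-dpf (1.02, edgeR adjusted p = 0.309).

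Of 8 tested genes of phosphate handling and mineral formation, 3 were lower at 6-dpf (median -0.30): Alpl, tissue-nonspecific alkaline phosphatase (-1.78), the phosphatase gene Phospho1 (-1.38) and the secretory kinase gene Fam20c (-0.85), whose product phosphorylates the SIBLING proteins. At 10-dpf 6 were lower (median -0.65). At 14-dpf 4 were lower and 1 was higher (median -0.90), with Phospho1 at -1.92 (SE 0.21, edgeR adjusted p = 0.00209), the phosphate transporter gene Slc20a2 at -1.77 (SE 0.18, edgeR adjusted p = 0.0014) and Fgfr1 at -0.90 (SE 0.20, edgeR adjusted p = 0.0288). Of the receptors of sclerostin and readouts of WNT signalling, 1 of 10 was lower at 6-dpf (median -0.27), a share near the 10.9% of all genes called, namely Lrp4 (-0.87, SE 0.12, edgeR adjusted p = 0.00292), which encodes a co-receptor that holds sclerostin. Axin2, a general WNT target, was at 0.08 and was not called. At 14-dpf, where 7.04% of all genes were called lower, 3 of 10 were lower (median -0.32), Notum (-1.94), Tcf7 (-1.86) and Lrp5 (-1.42). Of 6 partners of podoplanin, 1 was lower and 1 higher at 6-dpf (median 0.07), too few to read against 10.9% of all genes, and 2 were higher at 14-dpf (median 0.09), the platelet receptor gene Clec1b (1.48, SE 0.26, edgeR adjusted p = 0.0115) and the cytoskeletal linker gene Ezr (0.84, SE 0.20, edgeR adjusted p = 0.0339). The genes named here at 6-dpf were chosen after their values were seen.

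Osteoblasts are the cells from which osteocytes form, and 11 of their genes were measured beside the members. At 6-dpf 9 of 11 were lower and none higher (median -0.94), at 10-dpf 7 were lower (median -0.96) and at 14-dpf 9 (median -2.31), with Dlx3 at -2.84 and Col1a1 at -2.55. Each member was therefore also expressed relative to the mean log2 CPM of these 11 genes within a library, and the genotypes were compared by a two-sided exact permutation test over libraries. At 6-dpf Mepe was 3.26 higher in P-Apex1KO on this scale, Sost 2.41 higher and Pdpn 1.61 higher, each with no overlap and an exact p = 0.0357, the smallest this design can give. Dmp1 (0.54, exact p = 0.179) and Phex (-0.32, exact p = 0.143) overlapped between genotypes. At 10-dpf Mepe (0.71, exact p = 0.171) and Sost (0.42, exact p = 0.229) overlapped, as did Dmp1 (-0.66, exact p = 0.114) and Phex (-0.08, exact p = 0.743). Only Pdpn (1.26, exact p = 0.0571) did not overlap at 10-dpf. At 14-dpf Mepe was 0.90, Sost 1.19 and Pdpn 2.21 higher relative to the osteoblast genes, each with no overlap and an exact p = 0.0571, again the smallest possible, while Dmp1 was at -0.40 (exact p = 0.286) and Phex at 0.31 (exact p = 0.4). The osteoblast genes were already seen to be lower, so a gene that is lower by less, or unchanged, comes out higher on this scale. The share of all genes with no overlap on this scale was not counted. The test had no sex term, and at 14-dpf all 3 P-Apex1KO libraries but only 1 of 4 WT libraries came from females. None of the 20 comparisons passed Benjamini-Hochberg adjustment (lowest adjusted exact p = 0.163). None could have passed, because the smallest possible exact p was 0.0286 at 3-dpf, 0.0357 at 6-dpf and 0.0571 at 10- and 14-dpf. The adjusted values therefore decide nothing.

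**Figure D4:**
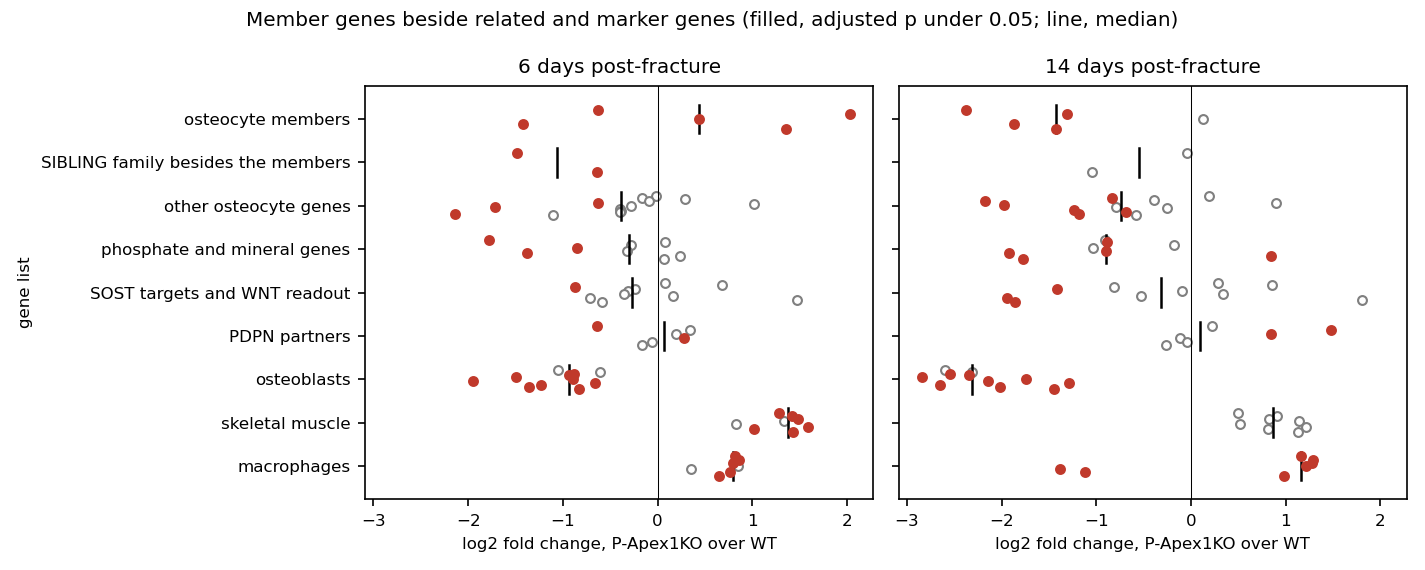
Log2 fold change of P-Apex1KO over WT at 6-dpf and at 14-dpf for the 5 genes and 8 lists of related or marker genes, 1 point per gene, filled where the adjusted p is under 0.05, with a line at the median of each list. At 6-dpf Mepe (2.04) and Sost (1.36) lie to the right of the osteoblast genes, whose median is -0.94, and at 14-dpf 4 of the 5 genes lie left of 0 with them.

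Markers of other callus cells also differed between genotypes. At 6-dpf 6 of 8 skeletal muscle genes were higher in P-Apex1KO (median 1.38), with summed levels of 6080 to 14000 CPM against 2630 to 4720 CPM in WT, and 5 of 7 macrophage genes were higher (summed 1050 to 1210 CPM against 576 to 777 CPM). Of the lymphatic endothelial genes 3 of 6 were higher at 6-dpf (summed 139 to 153 CPM against 101 to 150 CPM), as were 2 of 7 fibroblast genes (665 to 1110 CPM against 732 to 945 CPM), and cells of both kinds and macrophages can express Pdpn. Cartilage genes were lower at 6-dpf in 8 of 8 (2870 to 5080 CPM against 32300 to 57700 CPM). At 10-dpf 4 of 6 osteoclast genes were lower (817 to 1200 CPM against 1780 to 4440 CPM) and 4 of 7 macrophage genes higher (719 to 815 CPM against at most 730 CPM). No muscle gene was called at 10-dpf (2640 to 5840 CPM against 979 to 2960 CPM), nor was any cartilage gene, and WT replicate 3, the lowest WT library for 4 members, had the highest cartilage sum of its group, 46200 CPM against 18000 to 26100 CPM in the other WT libraries. At 14-dpf no muscle gene was called (2590 to 8910 CPM against 996 to 3550 CPM), and 6 of 6 osteoclast genes were lower (1050 to 1960 CPM against 7480 to 8590 CPM). In cartilage 7 of 8 genes were higher and 1 lower, although the sums overlapped (5230 to 6260 CPM against 3090 to 7940 CPM). Of the macrophage genes 5 of 7 were higher and 2 lower, with sums that also overlapped (910 to 1020 CPM against 965 to 1140 CPM). The single WT female, replicate 1, with which the fit with sex compares the P-Apex1KO libraries, had the lowest cartilage sum, 3090 CPM. No marker of these lists was at 0 throughout a group. Among the 3 P-Apex1KO libraries at 6-dpf, replicate 2 had the highest muscle sum, 14000 CPM, and replicate 1 the lowest, 6080 CPM, and replicate 1 was also the lowest for Mepe and Sost. The part of these other cells in the differences of the members was not tested.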

How the data were processed

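Per the labels and the study's methods, total RNA of fracture callus was made into stranded libraries, and the authors aligned paired reads to mm39 with STAR 2.7.0d and counted uniquely mapped reads per gene with featureCounts. The deposited table holds raw counts, whole numbers with no normalization, which were used as deposited. Symbols came from GENCODE on GRCm39, the same build, and 667 of 55416 gene IDs found none and stayed in the tests unnamed. Counts per library ran from 18334389 to 43111491, and the lowest count of a member in any library was 55.

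The 5 genes, the lists, the tests and the rule for named genes were chosen with earlier results of these data known. Named were the 5 members, Apex1, Ibsp, Spp1, Dspp and Fgf23, at most 3 called genes of each related list with the largest change at 14-dpf, and the 5 protein-coding genes with at least 1 CPM most correlated with each member. The value of 1 gene that this rule names is not reported here. Group, day and sex came from the labels, which do not say that the libraries of a group came from separate mice, so p-values measure the spread between these libraries.

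Each time point was fitted in edgeR 4.0.16 (R 4.3.3) with filterByExpr, TMM scaling, genotype and sex, robust quasi-likelihood F tests and Benjamini-Hochberg adjustment at 0.05. Changes over time used 4-group models of both time points. The SE is the size of the log2 fold change over the square root of F. Log2 CPM used a prior count of 2, FPKM the union of exon lengths, and the permutation tests went through every split of the libraries. Spearman's rho came from SciPy 1.17.1. The procedure was tested on simulated data with 200 changed genes, and 4-fold changes were recovered in 100% of genes at 3-, 6- and 10-dpf and in 90% at 14-dpf, and 2-fold changes in 66%, 67%, 63% and 13%. Alternatives were DESeq2 1.42.0, its size factors, library size alone, no filter, no sex term, a replicate block, all 30 libraries in 1 model, and leaving out each library.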

Additional observations from a re-analysis of the deposited data

Results flagged for a closer look

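Pdpn in WT replicate 1 at 10-dpf, at 33.1 CPM, stood apart from the other 3 WT libraries of that day, which lay between 44.2 and 46.5 CPM, by more than Dixon's critical value for 4 samples. It was the only such library in 25 groups examined, and chance alone gives about 1 in 20.

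The genotype difference of 3 of the 5 genes was not the same at 6- and at 14-dpf by a test of the interaction, a comparison chosen after the values had been seen. The difference changed by -3.22 on the log2 scale for Mepe, by -2.67 for Sost and by -1.76 for Dmp1 (edgeR adjusted p = 0.000866, 0.000988 and 0.00357). The 3 calls held under every alternative run with all libraries and without any single library, over which Mepe ran from -3.86 to -2.92, Sost from -3.26 to -2.10 and Dmp1 from -2.03 to -1.57. The libraries of 6- and 14-dpf have names of different styles, and a shift between these sets that is the same for both genotypes cancels in this comparison. Muscle and macrophage markers were also higher in P-Apex1KO at 6-dpf, and their part in the result was not tested.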

How the results depend on the processing

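With all libraries kept, no call of a member changed direction, and DESeq2 size factors changed no count of members by over 1.5 times. Members called at 6-dpf numbered 5, but 3 with no filter, 3 in 1 model of all 30 libraries and 2 with the replicate block. At 10-dpf there were 2, but 0 with library size alone, 0 with no filter and 1 in the model of all 30. The 4 at 14-dpf stayed 4, except 3 with no filter (Phex, edgeR adjusted p = 0.0662) or with the block (Sost, 0.112). For the change of the genotype difference from 3- to 6-dpf there were 0, but 1 with DESeq2, with library size alone and with no sex term, and for WT from 10- to 14-dpf 0, but 3 with DESeq2 and 3 with the block. Leaving out 1 library gave 3 to 5 members at 6-dpf, 0 to 3 at 10-dpf, 3 to 4 at 14-dpf, 0 to 1 for the 3- to 6-dpf difference, 1 to 4 for P-Apex1KO from 3- to 6-dpf and 0 to 1 for WT from 10- to 14-dpf. With library size alone the median of all genes was 0.20 at 6-dpf and 0.31 at 14-dpf, against 0.01 and 0.04.

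Over all genes, 0 were called at 3-dpf, but 85 with DESeq2, 4 with no filter, 1 with the block and 38 in the model of all 30 (0 to 10 without 1 library). At 6-dpf 2212 became 3594 with library size alone and 677 with the block (890 to 2359), at 10-dpf 1221 became 2187 with DESeq2 and 750 with no sex term (42 to 1827), and at 14-dpf 2289 became 6849 with no sex term and 6188 in the model of all 30 (1206 to 3773, and 6181 without WT replicate 1 and with no sex term). For the genotype difference, 267 from 3- to 6-dpf became 718 with DESeq2, 433 with library size alone and 90 with the block (104 to 450), 86 from 10- to 14-dpf became 465, 8 and, with no filter, 207 (2 to 206), and 1522 from 6- to 14-dpf became 2589 with no sex term (816 to 1993). In P-Apex1KO, 2867 from 3- to 6-dpf became 1621 with the block (1223 to 3258), and 51 from 10- to 14-dpf became 550 with DESeq2, 217 with no filter, 672 with no sex term and 656 with the block (0 to 252). In WT, 2190 from 10- to 14-dpf became 1162 to 2760 without 1 library. The cause of these shifts was not tested.

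Replicate numbers were not taken to pair the libraries, since at no time point did every pair correlate above 0.1: deviations of same-numbered libraries correlated at 0.062 to 0.392 at 3-dpf, -0.089 to 0.078 at 6-dpf, -0.18 to 0.184 at 10-dpf and -0.251 to -0.079 at 14-dpf. At 3-dpf all 4 were above 0, 3 of them above 0.1, and 3 of 4 P-Apex1KO libraries correlated best with their own number, a hint from the data and not from the labels. The block stands in place of sex and says nothing of a weaker effect. Counts are lowest for Sost and Mepe at 3-dpf, and at 14-dpf sex and genotype are nearly confounded.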
